A study of Mus musculus with 3 samples.

Results

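The PRDM family of transcriptional regulators was examined in mouse haematopoietic stem cells through 8 of its genes, Mecom, Prdm16, Prdm1, Prdm2, Prdm4, Prdm9, Prdm10 and Prdm15. They were chosen by name, and each was read from probe sets that the platform annotation assigns to a single gene. The 8 genes hold 10 such probe sets, of 21789 probe sets and 19938 genes in all, since Mecom and Prdm2 have 2 each and the others have 1. The cells came from the bone marrow of wild-type C57Bl/6 mice aged 6 to 10 weeks and were sorted as Lin-, c-Kit+, Sca-1+, CD150+, CD48- and CD41-, a gate named KLS SLAM that enriches for long-term repopulating stem cells. One group of 3 wild-type arrays was measured, called arrays 1, 2 and 3 after their replicate numbers, with no treatment and no second genotype analysed here. The labels do not say whether the arrays came from separate animals or pools, so the spread between them may be technical.

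PRDM proteins carry an N-terminal PR domain, related to the SET domain of histone methyltransferases, and in most members a series of zinc fingers that bind DNA. Some members methylate histones themselves and others act by recruiting corepressors or coactivators. Mecom (also called Prdm3 or Evi1) and Prdm16 are close relatives that are both needed for the maintenance of haematopoietic stem cells, and both are known from leukaemias in which rearrangement activates them. The Mecom locus is transcribed from separate starts: the long form, MDS1-EVI1, contains the PR domain, and the shorter EVI1 form, which begins farther downstream, lacks it.

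The alternative starts are shown because Mecom was read by separate probe sets. The RefSeq table of GRCm38.p6 holds a promoter window for 7 of the 8 genes, and Mecom has 2, lying 496.6 kb apart on the minus strand of chromosome 3. The upstream window is chr3:30509760-30510009 and the downstream window is chr3:30013205-30013454. The window of Prdm16 is chr4:154636874-154637123, also on the minus strand. Each is the 250 bases before an annotated start, written 5′ to 3′ along the gene's strand. Capitals mark CG dinucleotides, a motif that reads the same on both strands.
Mecom, upstream start: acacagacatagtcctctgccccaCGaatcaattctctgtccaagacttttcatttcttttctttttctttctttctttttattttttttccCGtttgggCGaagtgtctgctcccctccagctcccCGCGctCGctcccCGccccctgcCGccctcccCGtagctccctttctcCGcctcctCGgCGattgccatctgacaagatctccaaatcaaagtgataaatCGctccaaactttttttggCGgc
Mecom, downstream start: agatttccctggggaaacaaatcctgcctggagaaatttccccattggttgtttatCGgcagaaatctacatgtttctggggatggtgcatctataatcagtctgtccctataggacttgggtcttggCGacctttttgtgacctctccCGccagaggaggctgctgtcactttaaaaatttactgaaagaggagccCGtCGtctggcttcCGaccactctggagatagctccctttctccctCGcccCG
Prdm16: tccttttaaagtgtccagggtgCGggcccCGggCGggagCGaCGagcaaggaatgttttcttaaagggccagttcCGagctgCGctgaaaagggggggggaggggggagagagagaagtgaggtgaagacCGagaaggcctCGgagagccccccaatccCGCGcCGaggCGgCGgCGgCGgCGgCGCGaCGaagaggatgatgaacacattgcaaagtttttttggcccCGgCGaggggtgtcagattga
The upstream Mecom window held 14 CG dinucleotides, the downstream window 8 and the Prdm16 window 22. Among all 32851 windows of this length in the table the median was 6, and 92.1% held at least 1 CG. At least as many as in the upstream Mecom window were present in 29.4% of windows. For the downstream window this share was 43.0%, and for the Prdm16 window 14.8%. These counts describe the sequence and were not measured in the cells.

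The arrays give 1 intensity per probe set with no detection call, so a level was judged against a background limit. The limit is the 95th percentile of 1240 olfactory, vomeronasal and taste receptor genes, which marrow cells are not thought to express, and for arrays 1, 2 and 3 it lay at 6.29, 5.98 and 5.77 log2. A gene passing the limit of each array was called above the background range. Over all genes 36.9% were called, and the limits of arrays 1, 2 and 3 taken alone were passed by 39.3%, 49.1% and 55.3%. Stem cell markers were mostly above it: of 11 measured markers, Mecom among them, 10 were above the range and Hoxb5 was not. Among genes of the gate, Ly6a was not analysed here, and of the genes whose products the sort excludes, Cd48 was above the limit on array 3 alone and Itga2b, which encodes CD41, was above the range at 6.37 ± 0.14 log2 (SD, n = 3). Granulocyte genes were also present, 6 of 8 above the range. The summed intensities of the list were 8984 on array 1, 15050 on array 2 and 13976 on array 3. Mpo, among those above the range, was highest on array 1, while each other gene of the list was lowest there. Array 1 thus had the highest limit and the lowest summed granulocyte signal, and the part of either in the members' values was not tested. Probe sets of different genes differ in affinity, so no member's level is ranked against that of another. In such sorted populations a gene carried by fewer cells and one with less RNA per cell cannot be told apart.

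Of the 8 genes, 4 passed the limit on each array: Mecom, Prdm16, Prdm2 and Prdm4. That is 50.0% of the members beside 36.9% of all genes, with a median level of 6.42 log2 beside 5.96, and for 8 genes the counts do not set the family apart. Prdm9 and Prdm10 exceeded the limit on 1 array, Prdm15 on 2 and Prdm1 on none. Without array 1, whose limit was the highest, 5 members were called, Prdm15 being the addition, beside 46.9% of all genes. Without array 2 (38.7% of all genes called) or array 3 (37% called) the same 4 were called. With the limit at the 90th percentile of the receptor genes 7 members were called, all but Prdm1, beside 50.7% of all genes, a count that rests on a lower limit. It was also 7, beside 51.7% of all genes, when the mean of each gene over the arrays was set against the 95th percentile of the receptor genes' means, 5.91 log2. That limit lies below the average of the limits of the 3 arrays, 6.01.

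**Figure D1:**
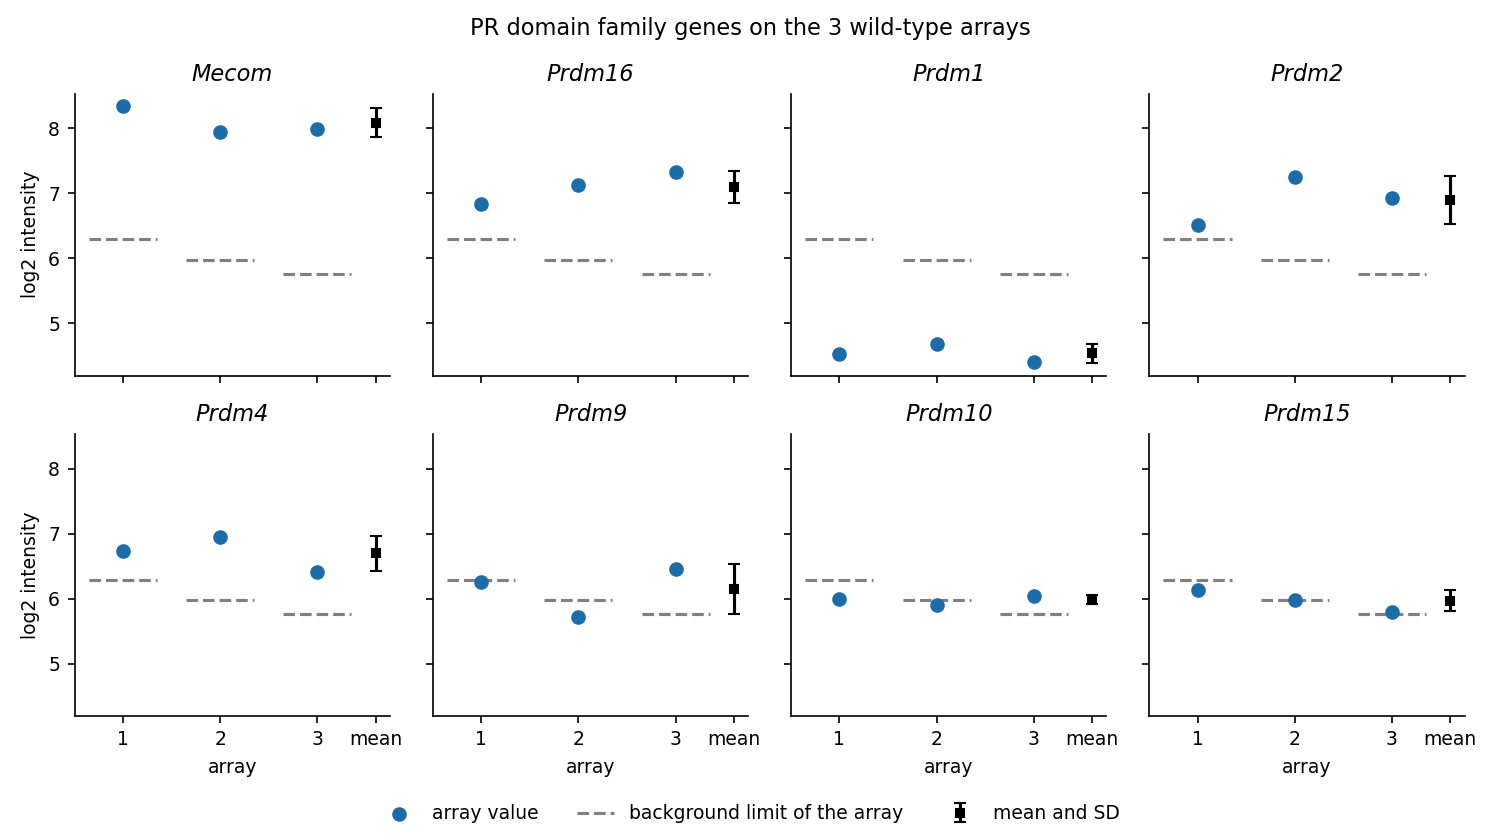
Each panel plots the log2 intensity of 1 gene (vertical axis) on arrays 1, 2 and 3 as circles, with the mean and SD over the 3 arrays as a square with bars, and dashed lines for the background limit of each array. Mecom lies 1.96 to 2.23 log2 above the limits, and Prdm1 lies below them on every array. Prdm10 and Prdm15 lie close to the limits, and Prdm9 passes its limit on array 3 alone.

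Mecom, a zinc finger regulator of stem cell self-renewal, was clearly above background. The average of its probe sets on arrays 1, 2 and 3 was 8.34, 7.94 and 7.99 log2, a mean of 8.09 ± 0.22 (SD, n = 3). These values lay 2.05, 1.96 and 2.23 log2 above the limits of their arrays. Array 1 was the highest and the other arrays differed by little, with 1.32-fold between the highest and the lowest array. The deviations of Mecom from its mean were 0.25, -0.15 and -0.10 log2 on arrays 1, 2 and 3. The genes nearest to it in mean level had median deviations of -0.14, -0.04 and 0.16, so the signs differed on arrays 1 and 3 and were the same on array 2. Mecom was the 1 member still above the range when the limit was set at the 99th percentile of receptor genes, which 17.5% of all genes passed.

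Both Mecom probe sets were above the limit on every array. The annotation lists each with 1 curated RefSeq mRNA that the other lacks, while 1 record that is not a curated mRNA is listed with both. The first probe set was at 8.64, 8.30 and 8.40 log2 on arrays 1, 2 and 3 (mean 8.44 ± 0.18, SD, n = 3), and the second at 8.04, 7.58 and 7.59 (mean 7.74 ± 0.26). Each was highest on array 1 and lowest on array 2, and the first was the brighter on every array. Where the probes lie in the locus is not stated in the sources used here, so neither set was assigned to the long or the short form.

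The difference between the Mecom probe sets varied little between arrays. The first exceeded the second by 0.60, 0.71 and 0.81 log2 on arrays 1, 2 and 3, a mean of 0.71 ± 0.11 (SD, n = 3), which is 1.63-fold. The direction was the same on 3 of 3 arrays, for which an exact two-sided sign-flip permutation test cannot give a p below 0.25. Among 777 genes with exactly 2 probe sets the median size of the difference was 0.68 log2, and 51.5% of them had a smaller one than Mecom. The SD of the difference over the arrays was smaller than that of Mecom in 18.0% of these genes, whose median SD was 0.29. In the 309 genes with both probe sets above the range, the corresponding shares were 63.4% and 23.0%. Some pairs, such as those of Dnajc3 and Ggh, hold identical values, and they count among the smaller ones in these shares and in those of Prdm2 below. Beside these pairs Mecom had a difference of ordinary size and a comparatively small spread. A difference between probe sets combines affinity and transcript amount, which cannot be told apart here.

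Prdm2, which encodes the Rb-binding histone methyltransferase RIZ, also had 2 probe sets, and these disagreed. The first was at 6.78, 6.96 and 6.59 log2 on arrays 1, 2 and 3 (mean 6.77 ± 0.19, SD, n = 3). The second was at 6.25, 7.56 and 7.27 (mean 7.03 ± 0.69). On array 1 the second fell 0.04 log2 short of the limit and on the other arrays it was the brighter of the pair. Its own range was 2.47-fold, beside 1.30-fold for the first. The annotation lists 1 mRNA for the second probe set, and that mRNA is also listed for the first together with another.

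The first minus the second Prdm2 probe set was 0.52, -0.59 and -0.68 log2 on arrays 1, 2 and 3, so the sign turned on array 1. The SD of this difference, 0.67 log2, exceeded that of 86.2% of the genes with 2 probe sets, and that of 88.7% of those with both above the range. In the limma fit over all 21789 probe sets, the spread of the second probe set had an unadjusted p of 0.080 and an adjusted p of 0.968, so it did not pass. Averaged, Prdm2 was at 6.51, 7.26 and 6.93 log2 (mean 6.90 ± 0.37) and above the range. With the brighter probe set of each gene used alone, Prdm2 lost its call because of array 1, and 3 members were called beside 37.5% of all genes. The call of Prdm2 thus depended on which probe set was read.

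**Figure D2:**
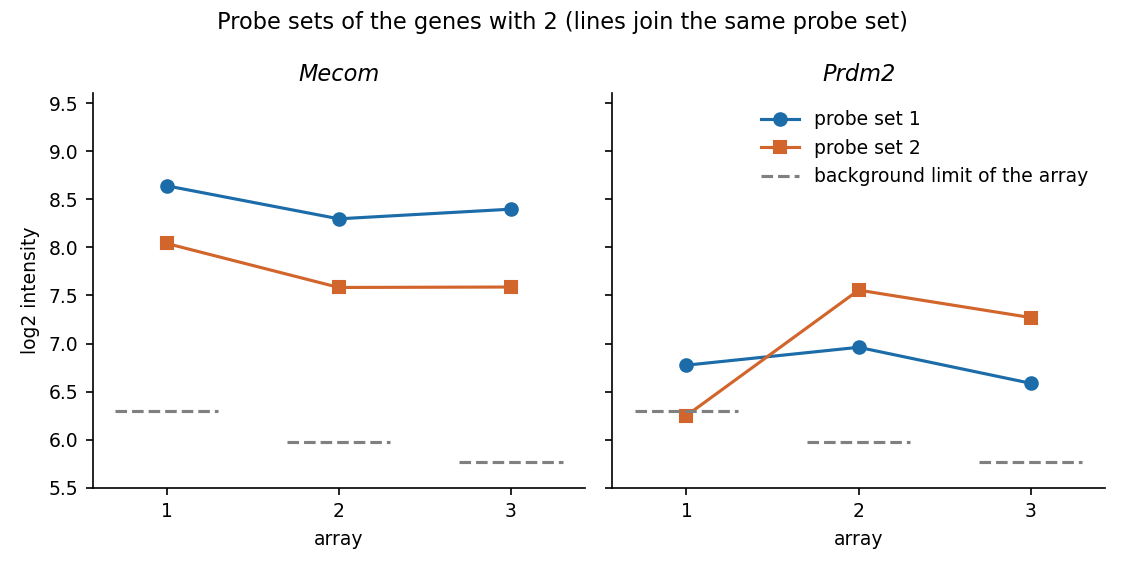
Log2 intensity (vertical axis) of the first probe set (circles) and the second (squares) of Mecom and of Prdm2 on arrays 1, 2 and 3, with dashed lines for the background limit of each array. The Mecom lines run nearly parallel, 0.60 to 0.81 log2 apart, while the Prdm2 lines cross between array 1 and the others.

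**Figure D3:**
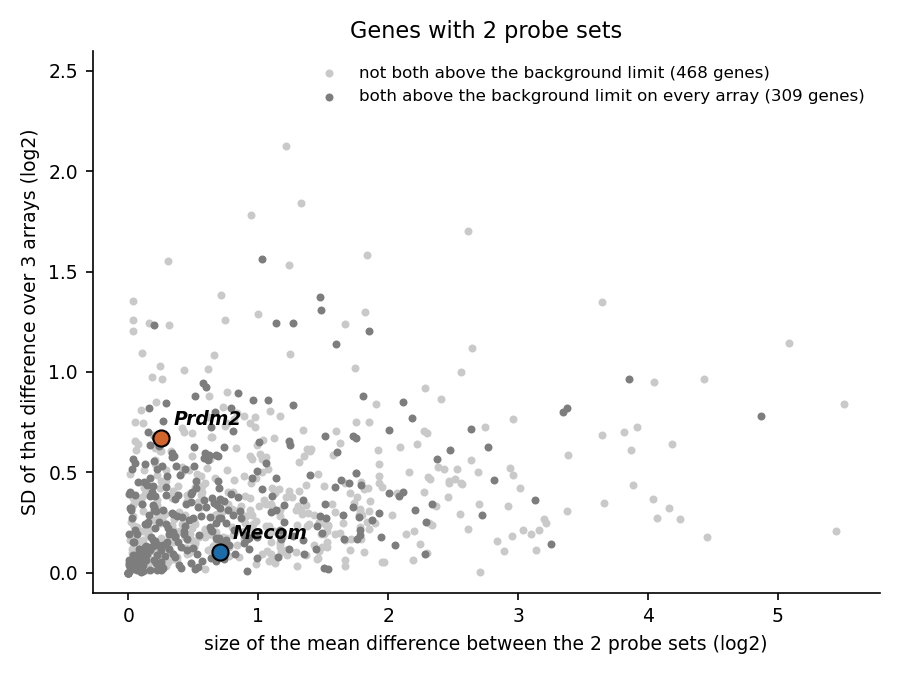
Each point is 1 of the 777 genes with exactly 2 probe sets, with the size of the mean difference between them on the horizontal axis and the SD of the difference over 3 arrays on the vertical axis, both in log2. Mecom lies at 0.71 and 0.11, low in the cloud, and Prdm2 at 0.25 and 0.67, near its upper part. Pairs with identical values, such as those of Dnajc3 and Ggh, lie at 0 on both axes.

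Prdm16, the relative of Mecom that also directs brown fat identity, was above the background range. It was at 6.84, 7.14 and 7.33 log2 on arrays 1, 2 and 3, a mean of 7.10 ± 0.25 (SD, n = 3), and lay 0.55, 1.16 and 1.57 above the limits. Array 1 was the lowest, where Mecom had its highest value. Among genes of like level 38.3% had a smaller SD than Prdm16. Since endothelium also expresses Mecom and Prdm16, its markers are given beside them: 3 of 6 were above the range, Pecam1, Emcn and Stab2. The summed intensities of the list were 417, 431 and 528 on arrays 1, 2 and 3. Of the genes above the range, Emcn was at 103, 174 and 220, while Pecam1 was lowest on array 2 and Stab2 highest on array 1. Stab2 lay close to the limits, passing them by 0.02, 0.11 and 0.28 log2 on arrays 1, 2 and 3, and Pecam1 passed by 0.04 on array 2. The part of these genes in the values of Mecom and Prdm16 was not tested. The endothelial genes Cdh5 and Kdr were below the limit on every array, at 5.42 ± 0.23 and 5.09 ± 0.19.

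Prdm4, a zinc finger protein that recruits the arginine methyltransferase Prmt5, was at 6.73, 6.95 and 6.42 log2 on arrays 1, 2 and 3. Its mean was 6.70 ± 0.27 (SD, n = 3), and it lay 0.44, 0.97 and 0.65 above the limits. Its highest and lowest arrays differed 1.45-fold, with array 3 the lowest. It was above the range under every alternative except the 99th percentile limit.

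Prdm9, the germ line histone methyltransferase that places meiotic recombination hotspots, passed the limit on array 3 alone. It was at 6.26, 5.72 and 6.46 log2 on arrays 1, 2 and 3 (mean 6.15 ± 0.38, SD, n = 3). It missed the limit by 0.04 on array 1 and by 0.26 on array 2 and passed it by 0.70 on array 3. Its spread was larger than that of 82.8% of genes of like level. Germ cell markers had 1 of 6 above the range, Prm2, with Ddx4, Dazl, Stra8, Prm1 and Tnp1 below the limit on every array.

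Prdm10, an activator of the folliculin gene Flcn, varied least among the 8 genes, at 6.00, 5.91 and 6.04 log2 on arrays 1, 2 and 3 (mean 5.98 ± 0.07, SD, n = 3). It passed the limit on array 3, where the limit is lowest, while its own values spanned 1.10-fold. Prdm15, a zinc finger regulator known from pluripotent cells, was at 6.13, 5.98 and 5.80 log2 (mean 5.97 ± 0.16). It missed the limit by 0.17 on array 1 and passed it by 0.0014 on array 2 and 0.036 on array 3.

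Prdm1, which encodes Blimp-1, the repressor that drives plasma cell differentiation, was below the limit throughout. It was at 4.53, 4.69 and 4.40 log2 on arrays 1, 2 and 3 (mean 4.54 ± 0.14, SD, n = 3), which is 1.77, 1.29 and 1.37 below the limits. The median of the receptor genes was 4.26, so Prdm1 lay inside the background range. Of 7 plasma cell markers 1 was above the range, Xbp1, while Jchain, Irf4 and Tnfrsf17 were below the limit on every array. A value inside the range does not show that the transcript is absent.

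The spread between arrays was tested for every gene with limma, setting the variance of each gene against the variance trend at its level. Of the 19938 genes 0 passed at an adjusted p under 0.05 (0% called), with 1017 at an unadjusted p under 0.05 and 0 of these among the 8 members. The adjusted p of the members ran from 0.983 for Prdm9 to 0.998 for Prdm10. Relative to the trend the SD was 1.71 times as large for Prdm9 and 1.28 times for Prdm2, and the other 6 lay below the trend, down to 0.318 times for Prdm10. With 3 arrays and a trend fitted to these same variances, hardly any gene could pass. Missing this test therefore does not show that a gene was stable. The highest value fell on array 1 for 2 members, on array 2 for 3 and on array 3 for 3. Over all genes it fell on arrays 1, 2 and 3 for 31.6%, 38.6% and 29.8%, so these counts do not set the family apart.

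**Figure D4:**
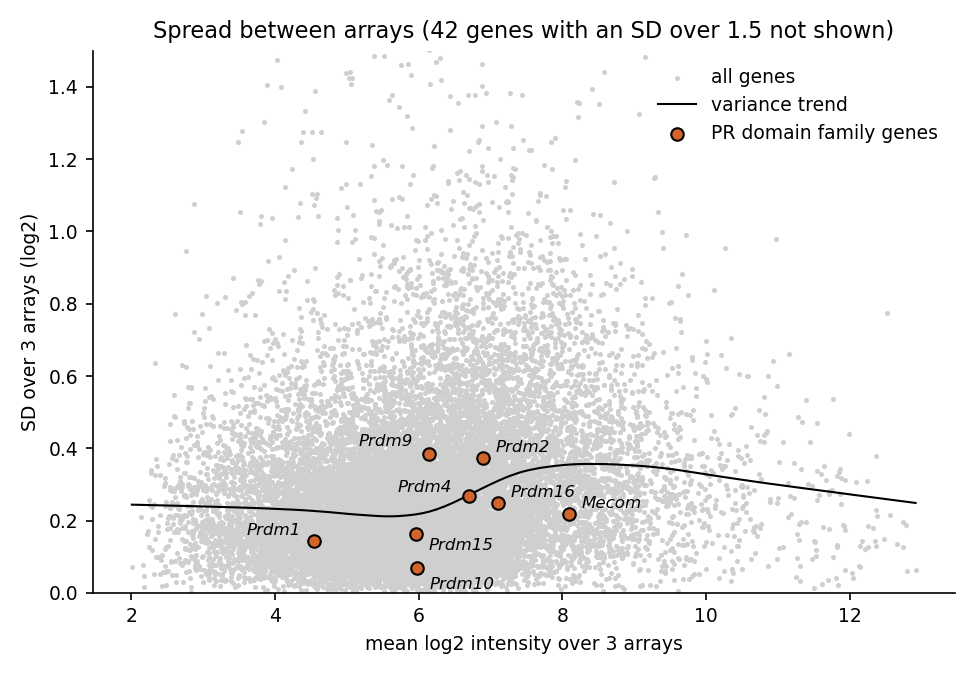
Mean log2 intensity over the 3 arrays (horizontal axis) against the SD over the arrays (vertical axis) for all genes in grey, leaving out 42 with an SD over 1.5, with the variance trend as a line and the 8 PR domain family genes as filled circles with names. All 8 lie within the cloud, Prdm9 and Prdm2 above the trend and Prdm10 lowest.

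Other genes of the family and genes tied to the members were described from 10 lists, of which 33 of 76 measured genes were above the range, beside 36.9% of all genes and a median of 5.96 log2 over all genes. None of the 76 passed the limma test of spread between arrays, in which 0 of all genes passed. Of the other PRDM genes and the related FOG genes, 1 of 7 was above it, with a list median of 5.69: Zfpm1, the GATA cofactor FOG1, at 6.85 ± 0.16 log2 (SD, n = 3). Prdm6 at 5.20 ± 0.35 and Prdm8 at 5.92 ± 0.17 were below the limit on every array, Prdm11 at 6.06 ± 0.19 missed it on array 1, by 0.018, and Prdm13 at 5.69 ± 0.28 passed it on array 2 alone.

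Corepressors and chromatin partners of Mecom and Prdm16 were mostly above background, 10 of 11, with a median of 7.36 log2. The corepressor genes Ctbp1 and Ctbp2, whose products bind both proteins, were at 7.28 ± 0.02 and 6.53 ± 0.06 log2, and the histone deacetylase genes Hdac1 and Hdac2 at 8.91 ± 0.29 and 10.06 ± 0.49. The acetyltransferase gene Kat2b, at 6.63 ± 0.33, missed the limit on array 1 alone. Of the genes reported as Mecom targets in blood cells 6 of 8 were above it, with a median of 7.02. The stem cell transcription factor gene Gata2 was at 7.43 ± 0.14, the adhesion receptor gene Adgrg1 at 9.39 ± 0.15, and Setbp1 at 7.21 ± 0.72. The integrin gene Itga6 was at 7.42, 8.65 and 7.93 on arrays 1, 2 and 3. Neither Cebpa nor Gata1 was above the range. The myeloid factor gene Cebpa, at 5.63 ± 0.13, was below the limit on every array, while the erythroid factor gene Gata1, at 5.88 ± 0.13, missed it on array 1 alone.

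Of the brown fat programme that Prdm16 directs in adipocytes, 0 of 10 genes were above the range, with a median of 5.15 log2. Below the limit on every array were 8 of them, while Cebpb passed it on arrays 2 and 3 and Ppargc1b on array 3. The uncoupling protein gene Ucp1 was at 4.56 ± 0.28 log2, Cidea at 4.07 ± 0.16, the coactivator gene Ppargc1a at 5.12 ± 0.42 and Elovl3 at 4.85 ± 0.15, each below the limit on every array. Both genes reported as Prdm16 targets in stem cells were above it, the growth factor gene Hgf at 6.74 ± 0.20 and the mitochondrial fusion gene Mfn2 at 6.62 ± 0.34. Adipocyte and stroma markers had 3 of 6 above the range, Plin1, Cxcl12 and Col1a1, with Adipoq and Lepr below the limit on every array. The summed intensities of that list were 390, 440 and 534 on arrays 1, 2 and 3. Fabp4, not above the range, alone went from 47.6 to 92.6 and 234.4. Of the genes above the range, Plin1 was highest on array 3, while Cxcl12 and Col1a1 were lowest there. The part of these genes in the values of Prdm16 was not tested.

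Around Prdm1, 1 of 6 genes that it represses was above the range: Myc, the growth regulator, at 9.72 ± 0.34 log2, in a list with a median of 6.05. The B cell factor gene Pax5 was at 6.07 ± 0.16, the class II transactivator gene Ciita at 6.04 ± 0.14 and Bcl6 at 6.18 ± 0.56, all missing the limit on array 1, and Bcl6 also on array 3. Of the Prdm1 corepressors 7 of 9 were above it, with a median of 6.60. Among them Tle2 was at 6.58 ± 0.14 and Tle3 at 6.60 ± 0.22, while Tle1 at 5.09 ± 0.14 and Tle4 at 6.12 ± 0.32 were not. The list shares Hdac1, Hdac2 and Ehmt2 with the partners of Mecom and Prdm16.

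Around Prdm9, 3 of 4 helper genes with chromatin or RNA-binding functions were above the range, with a median of 6.98 log2. They were the remodeller gene Hells at 7.27 ± 0.21, Ewsr1 at 9.94 ± 0.23 and Cxxc1 at 6.69 ± 0.50. The other, Zcwpw1, a reader of the marks that Prdm9 lays, was at 5.16 ± 0.28. Of 13 meiosis genes 0 were above it and 11 were below the limit on every array, with a median of 4.53. Among them were Spo11, which makes the meiotic breaks, at 4.57 ± 0.15, Dmc1 at 4.77 ± 0.32, Sycp1 at 2.77 ± 0.21 and Sycp2 at 3.85 ± 0.15.

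Of the partners and targets reported for Prdm2, Prdm4, Prdm10 and Prdm15, 7 of 10 were above the range, with a median of 6.42 log2. The retinoblastoma gene Rb1 was at 6.41 ± 0.40 log2 and Esr1 at 6.29 ± 0.25. Prmt5 and its partner Wdr77, which form the methyltransferase that Prdm4 recruits, were at 7.38 ± 0.37 and 7.36 ± 0.63. The 3 genes not above the range were Yap1 at 5.11 ± 0.25, Rspo1 at 6.00 ± 0.11 and Spry1 at 5.83 ± 0.03.

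**Figure D5:**
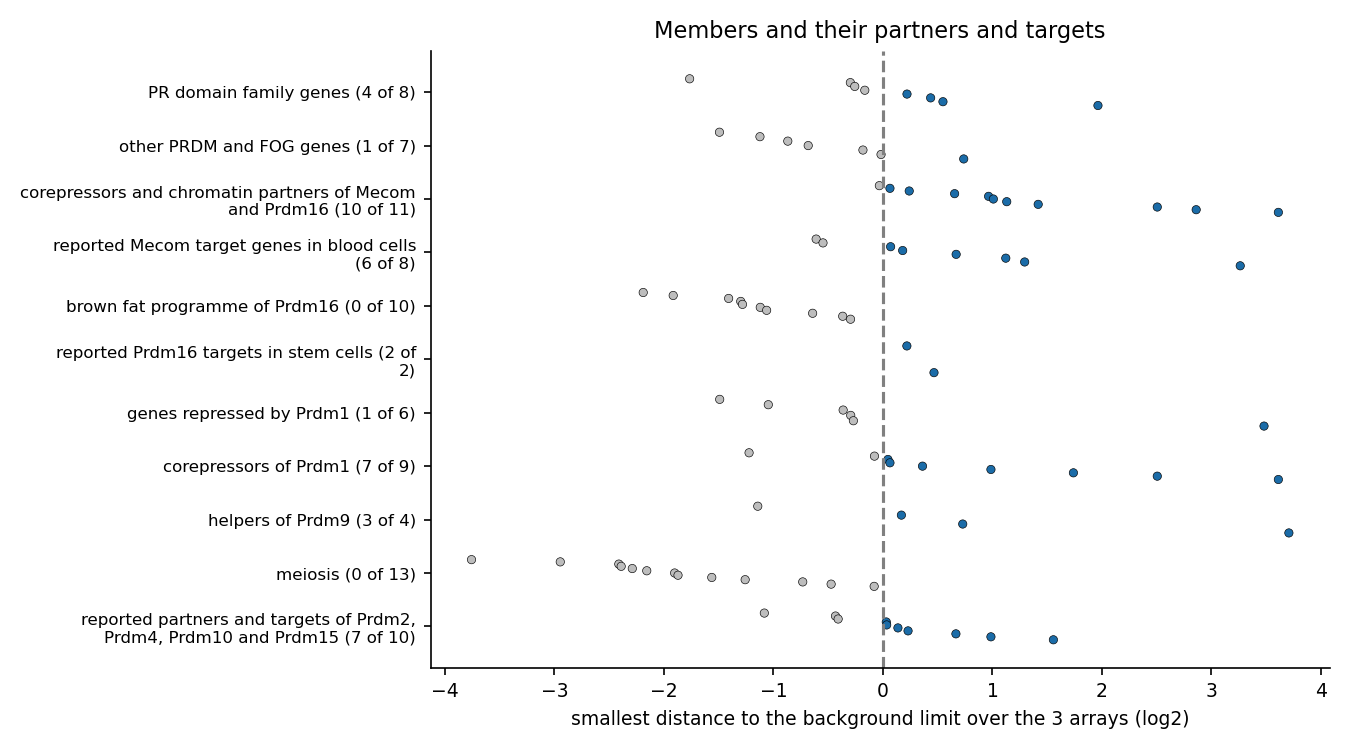
Each point is 1 gene, placed by its smallest distance to the background limit over the 3 arrays (horizontal axis, log2), with 1 row for the 8 members and 1 for each list; counts give genes above the limit on every array. The meiosis and brown fat rows lie wholly left of 0, and 10 of 11 corepressor and chromatin partner genes lie right of it.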

How the data were processed

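Haematopoietic stem cells were measured on 3 single-colour arrays of 1 group. Per the submitters' processing notes, the authors ran RMA in Affymetrix Expression Console, and no version is stated in the sources used here. The deposited intensities were treated as linear (2.82 to 18384), and log2 was taken with no pseudocount. RMA forces the arrays run together onto one distribution, which removes array-wide differences in brightness. Of 35554 probe sets, 21789 named 1 gene, 1621 several and 12144 were not listed, and the log2 values of a gene's probe sets were averaged. Spread between arrays was tested with limma 3.58.1 in R 4.3.3 (robust variance trend, one-sided F test, Benjamini-Hochberg over all genes), after the code was tested on simulated data. The number of arrays limits the precision. The members and lists were chosen with earlier results of these data known. Named genes are all members, the first 4 measured genes of each list, and list genes on the rarer side of the limit where 5 or fewer; marker genes were picked after values were seen. Likeness of pattern was not ranked, since 3 arrays are too few. Gene and list coordinates are not given, because no build is stated for the table. Alternatives covered the limit, the normalization, probe set choice and each array left out.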

Additional observations from a re-analysis of the deposited data

How the results depend on the processing

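The count of members above the background range, 4 in the main setting (36.9% of all genes called), rested on where the limit was set. It was 1 with the 99th percentile of the receptor genes (17.5% of all genes called) and 7 with the 90th percentile (50.7%). It was also 7 when the mean over arrays was set against the 95th percentile of the receptor genes' means (51.7%). The last 2 settings each added Prdm9, Prdm10 and Prdm15. With each array left out it ran from 4 to 5, beside 37% to 46.9% of all genes. After quantile normalisation it was 4, beside 36.9% of all genes. The count of list genes above the range, 33 of 76, was 15 with the 99th percentile (17.5% of all genes called). It ran from 33 to 42 with an array left out, beside 37% to 46.9% of all genes. Under alternatives chosen for the lists after seeing the data it was 45 with the 90th percentile, 44 with means over arrays and 33 after quantile normalisation, beside 50.7%, 51.7% and 36.9% of all genes. The Mecom probe set difference ran from 0.66 to 0.76 log2 with an array left out, was 0.70 after quantile normalisation and 0.70 from mean linear intensities. The count of genes varying between arrays was 0 in each of its 8 settings (limma). In each setting the trend was fitted to the variances under test and the arrays were few, so hardly any gene could pass. The repeated 0 is therefore no evidence that the genes were stable. Each member's mean level moved by less than its SD under the 5 alternatives run for it. This was fixed in advance where 1 of 3 arrays was left out. It was nearly so where the median deviation of genes of like level was removed from each array. Quantile normalisation could also move the levels only a little, because RMA had already forced the arrays onto one distribution. The same holds for the counts and the Mecom difference given after it. None of these alternatives therefore puts the members' levels to a real test. Values near the limit have little signal over background, and 3 arrays give wide error.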
